A study of Homo sapiens with 6 samples.

Results

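The mitochondrial ribosomal protein genes were examined after knockdown of *RBMS3*, which encodes an RNA-binding protein, in the human breast cancer cell line MDA-MB-231. The genes were chosen by name, as every gene whose symbol is MRPL or MRPS followed by a number and, at most, one letter from A to C. Of 15917 genes listed in the deposited comparison, 77 met this rule, 48 of them named MRPL and 29 named MRPS. The series holds 6 total RNA libraries, with 2 libraries labelled shCTRL (genotype WT), 2 labelled shRBMS3-B3 (genotype RBMS3 KD1) and 2 labelled shRBMS3-C3 (genotype RBMS3 KD2). Knockdown lines are described as made from luciferase-labelled cells that received a hairpin by lentivirus and were selected with puromycin. A scrambled hairpin is described as the negative control for knockdown lines, without naming these libraries. The values are those of one comparison of knockdown with control cells, described as 2 knockdown against 2 control replicates. Which of the 4 knockdown libraries entered, and how, is not named. No value of a single library was analysed, so depth per library is unknown and the spread between replicates is seen only through the standard error (SE) of each log2 fold change. The labels call the replicates biological without saying whether they were separate cultures, so these errors may be technical in part. The cells carried the markers of the line. By mean normalized count, *VIM*, *AXL* and *CD44* lay at percentiles from 98.5 to 99.9 of all listed genes, *CDH1* at percentile 3.64, *EPCAM* at percentile 25.7, and *ESR1* and *PGR* were not listed.

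Mitochondria have their own ribosomes, built from RNA encoded in the mitochondrial genome and from proteins that are encoded in the nucleus, made in the cytosol and imported. These ribosomes translate only the few messenger RNAs of the mitochondrial genome, which encode core subunits of the respiratory chain and of ATP synthase. The small subunit reads the messenger RNA, and the large subunit forms the peptide bond and holds the tunnel through which the new chain leaves. Many of the proteins descend from bacterial ribosomal proteins, and others are found in mitochondrial ribosomes and not in bacterial ones.

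None of the 77 genes passed the test. After Benjamini-Hochberg adjustment of the Wald p-values over all 15917 listed genes, 0 members had an adjusted p under 0.05, against 6.19% of all listed genes, of which 3.71% were higher and 2.49% lower in knockdown cells. The targeted gene was lower in the same comparison. *RBMS3* had a log2 fold change of -2.37 (SE 0.28, adjusted p = 6.18e-14), which left 19.3% of the control level. At an unadjusted p under 0.05, 6 members were counted, 5 with higher and 1 with lower values in knockdown cells. These make up 7.79% of the members, beside 21.2% of all listed genes, of which 11.4% were higher and 9.76% lower. The median log2 fold change of the members was 0.11, beside a median of 0.00464 over all listed genes, and 45 members had a positive and 32 a negative value.

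**Figure D1:**
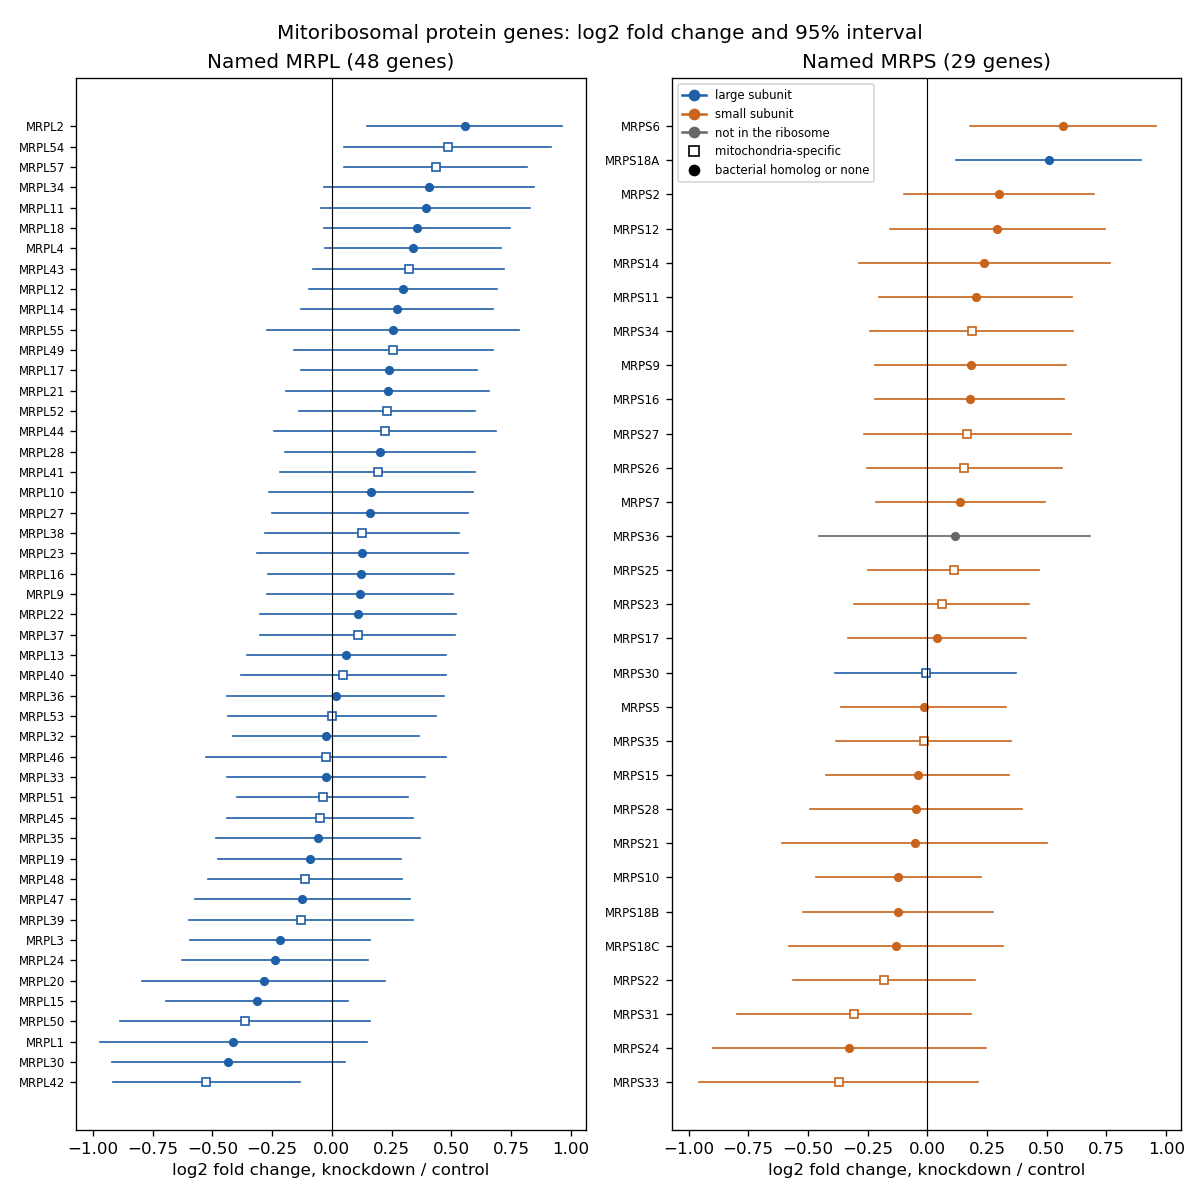
Each row is one of the 77 mitoribosomal protein genes, ordered by log2 fold change (x axis, knockdown over control). Points are the deposited log2 fold changes and lines their 95% normal intervals, blue for the large subunit, orange for the small subunit and grey for *MRPS36*, with open squares for proteins without a bacterial counterpart. The values run from -0.53 for *MRPL42* to 0.57 for *MRPS6*, and 71 of the 77 intervals contain 0.

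The precision of these values bounds the changes that could have been missed. The SE of the members ran from 0.18 to 0.30 on the log2 scale, with a median of 0.21. The called gene nearest to the threshold had an absolute Wald statistic, which is the log2 fold change over its SE, of 2.96. A member with the median SE would therefore have needed a log2 fold change of 0.61, or 1.53-fold, to pass. With the smallest SE the change needed was 0.52, or 1.44-fold, and with the largest 0.88, or 1.84-fold. The 95% intervals of all 77 members lay within 2-fold in either direction, between -0.97 and 0.97 on the log2 scale, and those of 36 members lay within 1.5-fold.

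The log2 fold changes of the members lay close together. Their SD was 0.24, and the middle 50 percent of them ran from -0.06 to 0.23. Because abundant genes have smaller errors, the same spread was taken over the other 8110 protein-coding genes whose SE fell within the range of the members. There the SD was 0.39, the middle 50 percent ran from -0.26 to 0.26, and 7.67% were called. Of the members, 62.3% lay within 1 SE of 0, beside 44.3% of those other genes. These shares describe the lists and were not tested.

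**Figure D2:**
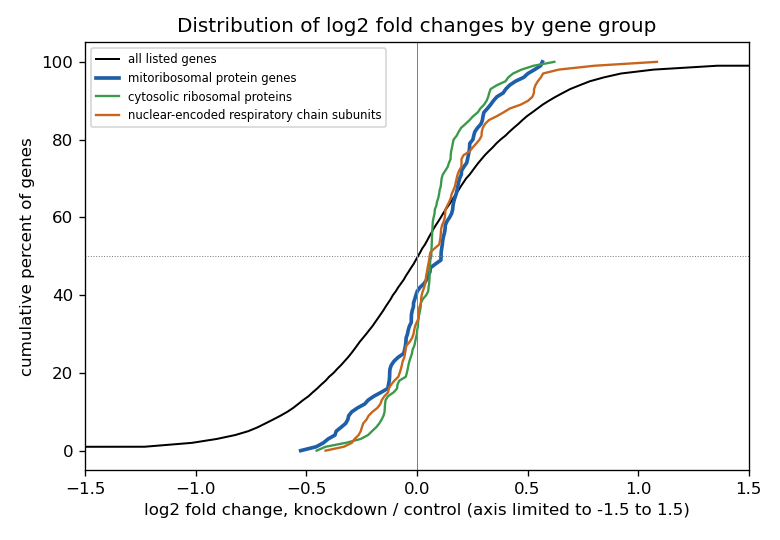
Cumulative percent of genes (y axis) up to each log2 fold change (x axis, knockdown over control, central part shown) for all 15917 listed genes (black), the 77 mitoribosomal protein genes (blue), 85 cytosolic ribosomal protein genes (green) and 75 nuclear-encoded respiratory chain genes (orange). The curves of the 3 smaller groups rise more steeply than that of all genes, with medians of 0.11, 0.07 and 0.06.

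The members nearest to the threshold are described first among those with higher values. *MRPS6* encodes a protein of the small subunit with a bacterial counterpart and lies on the plus strand of chromosome 21. Its log2 fold change was 0.57 (SE 0.20, adjusted p = 0.0609), the highest among the members, and the 95% interval in linear terms ran from 1.13-fold to 1.94-fold. With p-values adjusted only over the 7958 genes above the median of mean normalized count, it passed, at an adjusted p of 0.0449 (Wald test, Benjamini-Hochberg). It was the only 1 of the 65 members there to pass, and the share of those 7958 genes that passed is not given here. Another listed gene, *SLC5A3*, which encodes a myo-inositol transporter, overlaps *MRPS6* on the same strand and had a log2 fold change of -0.62 (SE 0.26, adjusted p = 0.123). In all, 11 members overlap a listed gene on the same strand, and the assignment of reads within such pairs could not be examined. *MRPL2* encodes a protein of the large subunit that lies near the peptidyl transferase centre. It had a log2 fold change of 0.56 (SE 0.21, adjusted p = 0.0818).

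The paralogs named MRPS18 take different places in the ribosome. *MRPS18A*, whose product is a part of the large subunit in spite of its name, had a log2 fold change of 0.51 (SE 0.20, adjusted p = 0.0957). *MRPS18B* and *MRPS18C*, whose products are in the small subunit, had values of -0.12 (SE 0.20) and -0.13 (SE 0.23). The interval of *MRPS18A*, from 0.12 to 0.90, overlapped those of *MRPS18B*, from -0.52 to 0.27, and *MRPS18C*, from -0.58 to 0.32. The difference between the paralogs was not tested.

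Further members with an unadjusted p under 0.05 were *MRPL54* and *MRPL57*, both coding for large subunit proteins without a bacterial counterpart. *MRPL54* had a log2 fold change of 0.48 (SE 0.22, adjusted p = 0.170) and *MRPL57* one of 0.44 (SE 0.20, adjusted p = 0.162). *MRPL34* followed at 0.41 (SE 0.23), with an interval that reached slightly below 0.

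*MRPL42* had the lowest value of all members. Its log2 fold change was -0.53 (SE 0.20, adjusted p = 0.0895), and the 95% interval in linear terms ran from 0.53 to 0.91 of the control level. Its product is a mitochondria-specific protein of the large subunit. The next lowest were *MRPL30* at -0.43 (SE 0.25), *MRPL1* at -0.41 (SE 0.29), *MRPS33* at -0.37 (SE 0.30), *MRPL50* at -0.36 (SE 0.27) and *MRPS24* at -0.33 (SE 0.29). The intervals of all of these but *MRPL42* contained 0. *MRPS24* shares its strand and sequence with the readthrough gene *URGCP-MRPS24*, which had a value of 0.45 (SE 0.24, adjusted p = 0.267). Neighbours in the order of the members cannot be told apart, since consecutive values differ by far less than 1 SE.

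**Figure D3:**
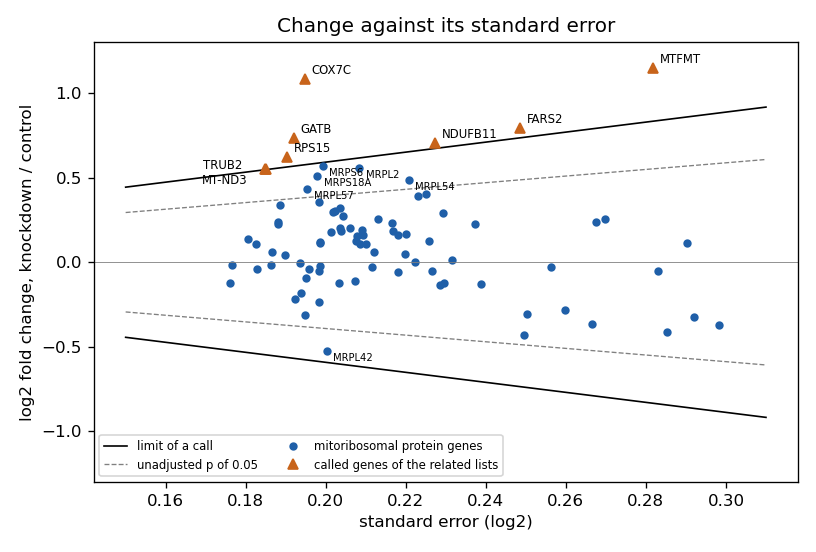
Log2 fold change (y axis, knockdown over control) of each gene against its SE on the log2 scale (x axis). Circles are the 77 mitoribosomal protein genes and triangles the called genes of the related lists, solid lines mark the smallest statistic that was called (2.96) and dashed lines an unadjusted p of 0.05. No circle lies beyond the solid lines, and 6 circles lie beyond the dashed ones.

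Levels of the members were compared per length, as mean normalized count over libraries per kilobase of the representative GENCODE transcript. The members had a median of 579 per kilobase, beside 152 for all listed protein-coding genes. The cytosolic ribosomal proteins had a median of 8404 and the nuclear-encoded respiratory chain subunits one of 1337. By level per kilobase, *MRPL51* was highest at 2282, followed by *MRPL12*, which codes for a protein of the stalk that binds translation factors, at 1989, and *MRPS34* at 1856. *MRPL42* was lowest at 63.9 and *MRPL19* came next at 66.7, where the representative transcripts have 3′UTRs of 14993 and 6921 bases. Their mean normalized counts were 993 and 522, beside a median of 763 over the members. Whether these cells express the long forms was not examined. In mean normalized counts without regard to length, the members ran from 139 for *MRPS21* to 2050 for *MRPL51*. *MRPS36* had a mean of 186 and *MRPS14* one of 224. The 3 genes with the highest and the 3 with the lowest mean normalized count had log2 fold changes whose intervals contained 0, among them *MRPL51* at -0.04 (SE 0.18), *MRPL12* at 0.30 (SE 0.20), *MRPS34* at 0.19 (SE 0.22), *MRPS21* at -0.05 (SE 0.28) and *MRPS14* at 0.24 (SE 0.27).

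The members were also divided by ribosomal subunit. The median log2 fold change was 0.11 for the 48 genes named MRPL and 0.06 for the 29 named MRPS, a difference of 0.05 that was not tested. Names do not always give the place. *MRPS30*, at -0.01 (SE 0.19), codes for a large subunit protein like *MRPS18A*, and the product of *MRPS36*, at 0.11 (SE 0.29), is now known as a subunit of a mitochondrial dehydrogenase complex and not of the ribosome. With genes placed by structure, the 50 large subunit members had a median of 0.11 and the 26 small subunit members one of 0.05. Members with a bacterial counterpart, 48 genes, had a median of 0.12, and the 28 mitochondria-specific members one of 0.05. Positions within the large subunit were also looked at, in groups chosen after the values were seen. The stalk genes *MRPL10*, *MRPL11* and *MRPL12* ran from 0.16 to 0.39. The 6 genes of the central protuberance, which faces the small subunit, ran from -0.11 for *MRPL48* to 0.36 for *MRPL18*, and the 6 genes at the rim of the exit tunnel ran from -0.24 for *MRPL24* to 0.24 for *MRPL17*. No gene of these groups had an unadjusted p under 0.05.

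Some mitoribosomal proteins carry other names and were not members. All 5 of those fixed as a list were in the table, and 0 passed the test. Their log2 fold changes were 0.33 (SE 0.19) for *PTCD3*, 0.26 (SE 0.20) for *GADD45GIP1*, 0.17 (SE 0.20) for *AURKAIP1*, 0.11 (SE 0.20) for *CHCHD1* and -0.11 (SE 0.17) for *DAP3*. The intervals of all 5 contained 0. *MRPL58* was not listed under that symbol, and no row under another symbol was counted for it. The 2 mitochondrial rRNAs, around which the proteins assemble, had values of 0.23 (SE 0.26) for *MT-RNR1* and -0.23 (SE 0.21) for *MT-RNR2*, in libraries from which ribosomal cDNA had been depleted.

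The machinery around the mitoribosome was read from lists of genes by role. Of 31 mitoribosome assembly factors, 1 was called higher and 0 lower. This was *TRUB2*, a pseudouridine synthase that acts on mitochondrial RNA, with a log2 fold change of 0.55 (SE 0.19, adjusted p = 0.0469). Of 16 listed mitochondrial translation factors, 1 was called higher and 0 lower. *MTFMT*, the enzyme that formylates the initiator methionyl-tRNA, rose by 1.15 on the log2 scale (SE 0.28, adjusted p = 0.00389), or 2.22-fold. Of 22 mitochondrial aminoacyl-tRNA synthetases and related enzymes, 2 were called higher and 0 lower. *GATB*, a subunit of the amidotransferase that makes glutaminyl-tRNA, rose by 0.74 (SE 0.19, adjusted p = 0.00715), and *FARS2*, the phenylalanyl-tRNA synthetase, rose by 0.79 (SE 0.25, adjusted p = 0.0318). The called shares were 3.23% of the assembly factors, 6.25% of the translation factors and 9.09% of the synthetases, beside 3.71% of all listed genes called higher. At an unadjusted p under 0.05 stood 16.1%, 18.8% and 31.8% of these lists, beside 21.2% of all listed genes. Their medians were 0.04, 0.13 and 0.0046 in log2 fold change.

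Products and counterparts of the mitoribosome gave few calls as well. Of the 13 protein-coding genes of the mitochondrial genome, 1 was called higher, *MT-ND3* at 0.55 (SE 0.18, adjusted p = 0.0469), and 0 lower. Negative values were found for 9 of them, and the median was -0.17. At an unadjusted p under 0.05 (Wald test) stood 1 higher and 2 lower, or 23.1%, beside 21.2% of all listed genes. The lower ones were *MT-ND6* at -0.65 (SE 0.23, Wald test, adjusted p = 0.0617) and *MT-ND5* at -0.55 (SE 0.19, adjusted p = 0.0523). Of 75 nuclear-encoded respiratory chain subunits, 2 were called higher, *COX7C* at 1.09 (SE 0.19, adjusted p = 9.89e-06) and *NDUFB11* at 0.70 (SE 0.23, adjusted p = 0.0381), and 0 lower, with a median of 0.06. Of 85 cytosolic ribosomal protein genes, 1 was called higher, *RPS15* at 0.62 (SE 0.19, adjusted p = 0.0283), and 0 lower, with a median of 0.07. Called higher were 7.69% of the protein-coding genes of the mitochondrial genome, 2.67% of the respiratory chain subunits and 1.18% of the cytosolic ribosomal proteins, beside the same 3.71% of all listed genes. No difference between the lists was tested.

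**Figure D4:**
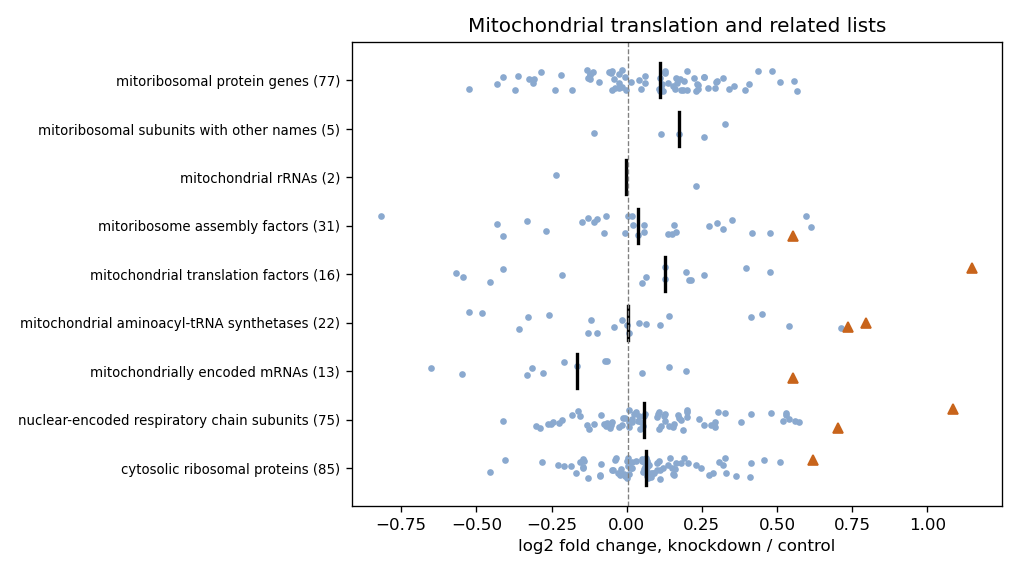
Log2 fold change (x axis, knockdown over control) of each gene in the mitoribosomal protein group and in 8 related lists, with the number of listed genes after each name. Dots are genes, orange triangles are called genes, black bars are medians, and the dashed line is the median of all listed genes. All 8 triangles, in 6 of the lists, lie to the right of 0, and the mitoribosomal protein genes have none.

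The members were next set beside the features of their transcripts, starting with the AUA element, a sequence element studied in connection with RBMS3. For each gene 1 transcript stood for its 3′UTR, and the motif was sought as 7 bases, of which the first is any base but C, the second and sixth are A or T, and the others read ATA and A in the order given. At least 1 match was present in 62 of the 77 members, or 80.5%, beside 84.8% of the 12350 listed genes with a 3′UTR. The 3′UTRs of the members were shorter, with a median of 465 bases against 1375 for all listed genes. The first match after the stop codon is shown for each of the 6 members with the lowest and the 6 with the highest log2 fold change that had one, to let the elements at both ends of the order be compared. *MRPS18A* and *MRPL54* had none. Sequences run 5′ to 3′ on the transcript strand, come from GENCODE release 44 on GRCh38, and have the motif in capitals.
MRPL42, chr12:93501289-93501313, plus strand: tgtattcagTAATATAtagtaaagt
MRPL30, chr2:99196273-99196297, plus strand: ttaaccattTTATAAAaattgcgtt
MRPL1, chr4:77952752-77952776, plus strand: agaataagaAAATAAAattttctct
MRPS33, chr7:141006171-141006195, minus strand: tctctaatgAAATAAAtacctaagt
MRPL50, chr9:101390062-101390086, minus strand: cacatacacAAATAAActtttatta
MRPS24, chr7:43866563-43866587, minus strand: tctgctattGAATAAAgaccttcta
MRPL34, chr19:17306809-17306833, plus strand: ttaaacgtgTAATAAAtgttcaaag
MRPL57, chr13:21177976-21178000, plus strand: aaaaaagaaAAATAAAcgaagtaaa
MRPL2, chr6:43054245-43054269, minus strand: cctgtactcTAATAAAatgcccccc
MRPS6, chr21:34142678-34142702, plus strand: gtttggcctTTATATAagcatgtgt

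In 7 of these 10 stretches the match contains AATAAA, the common polyadenylation signal, and so did 127 of all 276 matches in the 3′UTRs of the members. A match of this motif is thus often also a match of the signal. The windows of *MRPL42* and *MRPS6*, at opposite ends of the order, both lack AATAAA. Members with at least 1 match had a median log2 fold change of 0.11, the same to 2 decimals as the 15 members without a match. Among the other listed genes, those with a match had a median of -0.05 and those without one of 0.20. The other genes with a match also had longer 3′UTRs (median 1662 against 410 bases) with more A+U (59.5% against 46.0%). Their median A+U at the third codon position was 44.7% against 27.7%, beside 45.9% against 37.1% in the members. The part of the motif itself in these values was not tested. The 30 members with at least 3 matches had a median of 0.03, with values from -0.53 for *MRPL42*, which has 47 matches, to 0.57 for *MRPS6*, which has 3. The 47 matches lie in a representative 3′UTR of 14993 bases, and whether these cells express that form was not examined. The other listed genes with at least 3 matches had a median of -0.16.

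The position of a member within the group went with the base composition of its transcript. Across the 77 members, Spearman's rho between the log2 fold change and the percentage of A+U at the third codon position was -0.61 (Pearson's r -0.57), and with the A+U content of the 3′UTR it was -0.49 (Pearson's r -0.45). Over all 12350 listed genes with a 3′UTR, rho was -0.50 and -0.49 for the same features. With 3′UTR length rho was -0.06 in the members (Pearson's r -0.33) and -0.20 over all genes. With mean normalized count it was 0.30 (Pearson's r 0.25) and 0.09, and with the number of AUA matches -0.14 (Pearson's r -0.32) and -0.38. These are descriptions across genes of the same libraries, which are not replicates, and all points share one normalization. The share of A+U at the third codon position was chosen as a feature after the data were seen.

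To set short stretches beside this composition, codons 2 to 11 are given for 4 of the members at the ends of the range of share of A+U at the third codon position. Capitals mark A or T at the third position of a codon. Sequences are from GENCODE release 44 on GRCh38.
MRPL41, chr9:137552085-137552114, plus strand: ggcgtcctggccgcAgcggcgcgctgcctg
MRPL57, chr13:21176920-21176949, plus strand: ttcctgacTgcgctcctctggcgcggccgc
MRPL42, chr12:93469289-93469318, plus strand: gcTgtAgcTgcAgtAaaAtgggtgatgtcA
MRPS36, chr5:69217833-69217862, plus strand: atgggcagcaagatggcgtcTgcTagTagg

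Over its whole coding sequence, *MRPL41* has 9.49% A+U at the third codon position, *MRPL57* 11.8%, *MRPL42* 69.7% and *MRPS36* 70.9%. The stretches shown hold 1 such position in *MRPL41*, 1 in *MRPL57*, 7 in *MRPL42* and 3 in *MRPS36*. The stretch of *MRPS36* thus does not show the A+U-rich composition of its whole coding sequence. The log2 fold changes of *MRPL41*, *MRPL57*, *MRPL42* and *MRPS36* were 0.19, 0.44, -0.53 and 0.11, which is not the order of their composition. *MRPS26*, with 10.7% A+U at the third codon position, and *MRPL1*, with 68.9%, lie at the same ends and are not shown. Their log2 fold changes were 0.15 and -0.41. The listed genes were then divided into 5 equal groups by this content. Where it was lowest, all 14 members had positive values, with a median of 0.23, and 73.4% of the other genes were positive, with a median of 0.22. Where it was highest, 2 of 14 members were positive, with a median of -0.18, and 13.5% of the other genes, with a median of -0.36. In the group next to the highest, 8 of 15 members were positive, with a median of 0.04, beside 33.4% of the other genes and a median of -0.13. The medians of the members thus had the same order across the groups as those of the other genes, and were nearer to 0 in the 2 most A+U-rich groups. The part of base composition in the values of the members was not tested.

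**Figure D5:**
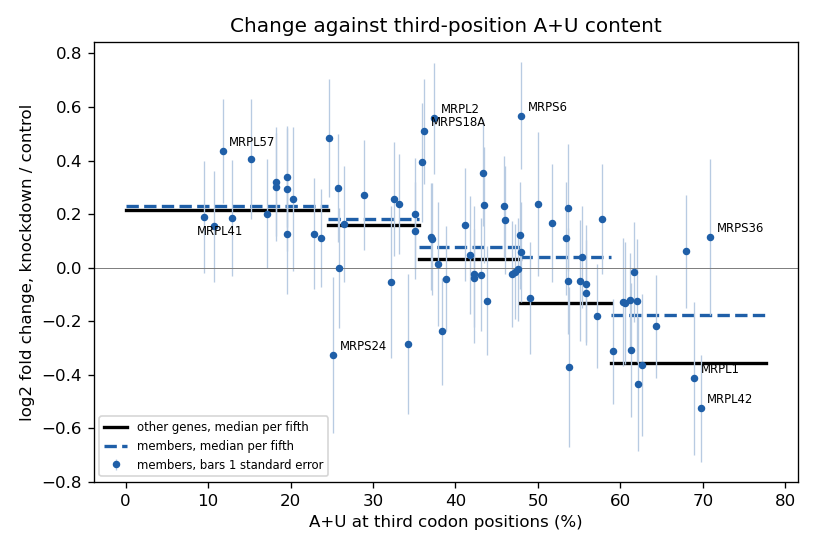
Log2 fold change (y axis, knockdown over control) of the 77 members against the percentage of A+U at the third codon position (x axis), with bars of 1 SE. Solid black lines are the medians of the other listed genes, and dashed blue lines those of the members, in 5 equal groups by composition. The medians of the members fall from 0.23 in the lowest group to -0.18 in the highest, and those of the other genes from 0.22 to -0.36.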

How the data were processed

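Libraries were made with a stranded total RNA kit for low input that includes depletion of ribosomal cDNA, and paired ends were sequenced. The submitters' processing notes name Salmon, DESeq2 and hg38, without versions. The authors deposited one table of knockdown against control cells, with, per gene, a log2 fold change, the standard error of that log2 value, a Wald score equal to their ratio, a p-value and an adjusted p-value. The deposited signal is a mean count after normalization, pooled over libraries and at least 26.7 in every row. These columns hold the authors' own comparison. They were read because the table holds no column of single libraries (0 such columns), so the Wald test chosen for that case was used and no count test was run.

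P-values were recomputed from the log2 fold change and standard error and adjusted by the Benjamini-Hochberg method over all 15917 genes. This called 986 genes at an adjusted p under 0.05, all of them also under 0.05 in the deposited adjusted p-values. GENCODE release 44 (GRCh38), matched through Ensembl identifiers, contained 15829 of the genes and all 77 members. The annotation used by the authors is not given in the sources used here. The representative transcript was MANE Select, otherwise Ensembl canonical, and 3′UTRs under 7 bases were left out. Promoters, from 250 bases before to 50 bases after the start, are RefSeq's on GRCh38.p14. Intervals are 95% normal intervals.

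Members and gene lists were chosen with earlier results of these data known. Genes were named by rule: *RBMS3*, members with an adjusted p under 0.05, the 6 highest and 6 lowest members by log2 fold change, the 3 highest and 3 lowest by mean normalized count, the MRPS18 paralogs, *MRPS30*, *MRPS36*, and up to 6 called genes of each related list. Others named were chosen after their values were seen. Alternatives were the threshold, a limit to abundant genes, 2 centrings, membership by structure, other summaries and other backgrounds. The functions were tested on simulated data. Computation was in Python 3.11.15 (pandas 2.3.3, numpy 2.4.6, SciPy 1.17.1), and plots were drawn with matplotlib 3.10.9.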

Additional observations from a re-analysis of the deposited data

How the results depend on the processing

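The count of members called was 0 under an adjusted p of 0.01, both centrings of the log2 fold changes and membership by structure, with 81 genes. *MRPL58* is not among those 81 genes. At an unadjusted p under 0.05 the count was 6, with 5 higher and 1 lower. With the table limited to the 7958 more abundant genes (mean normalized count above the median), 65 of them members, it was 1, *MRPS6*, called higher at an adjusted p of 0.0449, where fewer genes were tested. The share of these 7958 genes that passed is not given here, so this count has no background. The median of the members minus that of all genes, 0.10, stayed positive under every alternative computed, from 0.03 within groups of 3′UTR A+U content and length to 0.12 against protein-coding genes, apart from the Wald scale, where it was 0.50. Within groups of share of A+U at the third codon position, an alternative chosen after seeing the data, it was 0.07. The difference between large and small subunit members fell from 0.05 to 0.01 among the more abundant genes, and that between mitochondria-specific and bacterial-type members went from -0.06 to -0.02. The log2 fold change of *RBMS3* was -2.38 and -2.39 with the centrings.

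No paired analysis was possible because no column holds a single replicate. For the same reason another count model, leaving out replicates, and each hairpin alone were not run, and whether 1 library or hairpin carries a value cannot be seen.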

Other observations

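Promoters, neighbours and copies of the members were looked at after their values were seen. RefSeq promoter windows, from 250 bases before to 50 bases after the start, were matched by symbol for 68 of the 77 members and for 10652 listed genes in all. The ETS-type core CCGGAAG, searched on both strands, was present in 41.2% of the members' promoters and 19.5% of all, and the YY1-type core AANATGGC in 36.8% and 10.2%. The NRF1-type core, also on both strands, was present in 11.8% of the members' promoters and 11.7% of all. The CCAAT box was less frequent in the members, at 29.4% against 37.0%, and so was the TATA box (TATAAA), at 2.94% against 5.75%. The median log2 fold change was 0.02 for members with the ETS-type core and 0.11 for those without. For the YY1-type core these values were -0.01 and 0.15, for the CCAAT box 0.14 and 0.05, and for the NRF1-type core 0.10 and 0.11. Such medians over all genes are not given here. Such matches are letters in a window and no evidence of binding, and none of these shares was tested.

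Of the members, 27 had a listed gene on the opposite strand that starts within 1000 bases upstream and points away from it. In one such pair both genes are members, *MRPL46* at -0.03 (SE 0.26) and *MRPS11* at 0.20 (SE 0.21). Log2 fold changes had the same sign in 18 of the 27 cases and opposite signs in 9, where *MRPL46* and *MRPS11* are counted from both sides. The share of equal signs among all such pairs of listed genes was not computed, so these counts have no background. Partners of 3 members passed the test, or 11.1% of the 27, beside 6.19% of all listed genes. *APBA3* rose by 1.09 (SE 0.27, adjusted p = 0.00478) beside *MRPL54* at 0.48, and *CYB5RL* rose by 0.71 (SE 0.24, adjusted p = 0.0447) beside *MRPL37* at 0.11. *SKA3*, which codes for a protein of the spindle and kinetochore complex, fell by 0.53 (SE 0.17, adjusted p = 0.0424), while *MRPL57* on the other strand had a value of 0.44.

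GENCODE names 81 pseudogenes after 36 of the members, with 8 for *MRPS21*. Reads from near-identical copies can be split in counting, so values of these members carry that uncertainty. Their median log2 fold change was -0.03, beside 0.17 for the 41 members without a named pseudogene, and their median share of A+U at the third codon position was higher, 47.6% against 35.9%. Under clone-based symbols, 6 of the pseudogenes were listed, with mean normalized counts from 42.7 to 109 and log2 fold changes from -0.48 to 0.42, and 0 passed the test. The *MRPL42* copy *RP11-455G16.1* (named MRPL42P1 in GENCODE) had a value of -0.48 (SE 0.55), next to -0.53 for *MRPL42* itself. The *MRPS31* copies *RP11-64P12.2* and *RP11-78J21.2* had values of 0.42 (SE 0.36) and 0.08 (SE 0.45), against -0.31 (SE 0.25) for *MRPS31*. The remaining listed copies had the sign of their parent gene.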
